A study of Mus musculus with 10 samples.

Results

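The Hox genes encode homeodomain transcription factors and sit side by side in 4 clusters, Hoxa on chromosome 6, Hoxb on chromosome 11, Hoxc on chromosome 15 and Hoxd on chromosome 2. The 38 Hox genes described here were taken from a list of names, 10 in Hoxa, 10 in Hoxb, 9 in Hoxc and 9 in Hoxd, out of 21887 protein-coding genes in the RefSeq annotation of GRCm38.p6. A cluster ran from the first to the last base of its listed genes, and its flanks were the 100 kb on each side. Of the 15119 peaks in the DamID-seq list, 2 lay in a cluster and 8 in a flank.

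The peaks mark where ZFP266, a KRAB zinc finger protein, left its trace in mouse embryonic fibroblasts (MEFs) of strain 129. DamID-seq uses a fusion of a protein with the bacterial methyltransferase Dam, which methylates the adenine of nearby GATC sites. There were 5 Dam-ZFP266 samples, nucleofected with the plasmid PGK-mO-Dam-Zfp266, and 5 Dam only samples that received PGK-mO-Dam. Both plasmids carried mOrange as the leading reading frame behind the PGK promoter, and after 48 h of recovery cells were sorted as mOrange-positive by the sample labels, though the methods name GFP. Dam or its fusion was thus made from a plasmid and not from the endogenous locus, and a peak is a place where Dam-ZFP266 was above Dam only. The list pools all 10 samples, so there is no replicate error, the read depth of each sample is unknown, and the intervals given here cover counting error only.

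Hox genes give cells along the body axis their regional identity, and within a cluster the genes lie in the order in which they are expressed from anterior to posterior. Fibroblasts keep a Hox expression pattern that reflects the position they came from, while Polycomb proteins hold the silent part of each cluster and Trithorax proteins the active part. The clusters are compact and known to hold few transposable elements, among them few short interspersed elements (SINEs) such as B1 and B2.

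Both cluster peaks were in Hoxb. Neither Hoxa, Hoxc nor Hoxd held a peak, with an upper 95% Poisson limit of 3.69 peaks for each of these clusters. The 2 peaks in Hoxb had a 95% interval of 0.242 to 7.22 peaks. Together the 4 clusters spanned 0.485 Mb and held 4.12 peaks per Mb (95% interval 0.499 to 14.9). The flanks spanned 0.8 Mb and held 10 peaks per Mb (95% interval 4.32 to 19.7), beside 5.71 peaks per Mb over the genome. The ratio of the cluster value to the flank value was 0.412, with an exact conditional 95% interval of 0.0427 to 2.07. The interval includes 1, so a difference between clusters and flanks was not detectable with this number of peaks. At the flank density, 4.85 peaks would fall in sequence as long as the clusters, and at the genome density 2.77. With flanks of 50 and 200 kb in place of 100 kb, the flanks held 3 and 10 peaks, a lower density in both cases.

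**Figure D1:**
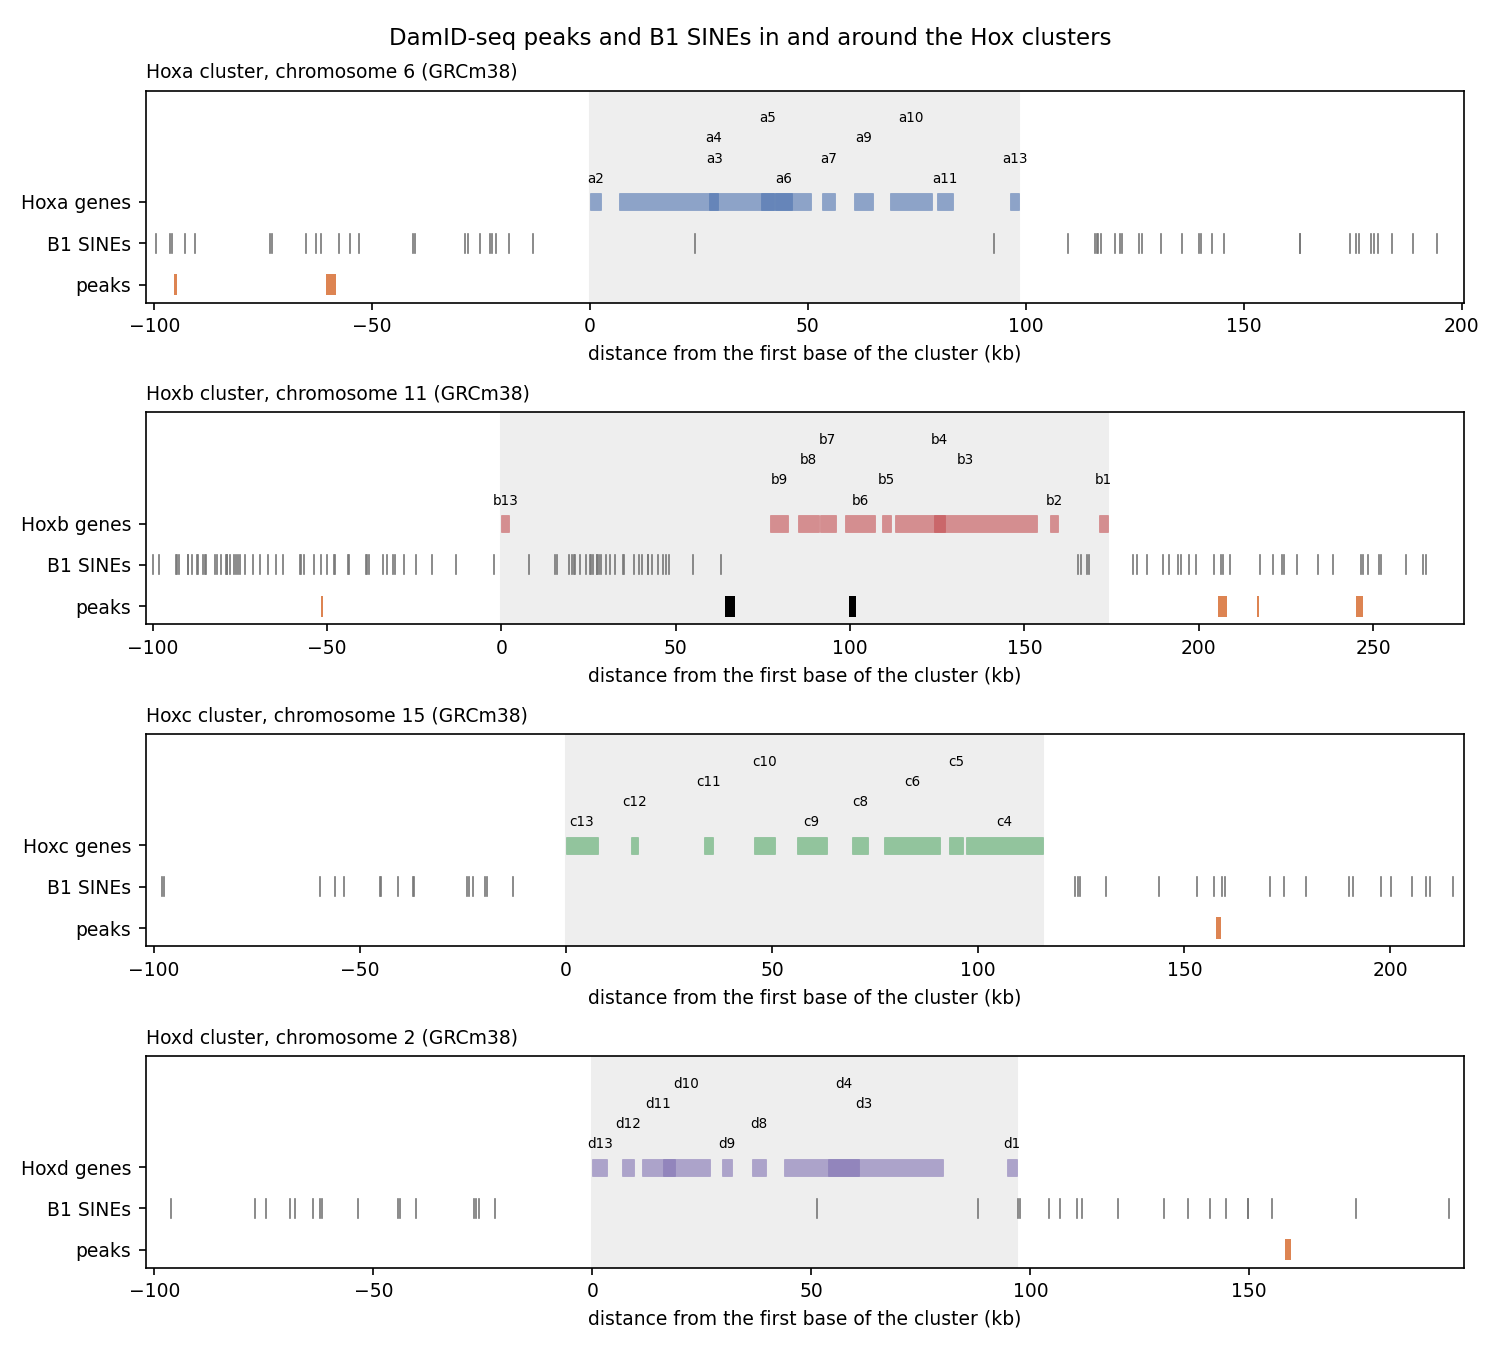
Maps of the 4 Hox clusters (grey background) with 100 kb on each side, drawn to scale in kb from the first base of each cluster on GRCm38. Coloured boxes are the listed Hox genes (a2 stands for Hoxa2), grey ticks B1 SINEs, black boxes the 2 peaks in clusters and orange boxes the 8 peaks in flanks; the 2 black boxes are both in Hoxb, and 33 of the 37 B1 SINEs of Hoxb stand between Hoxb13 and Hoxb9.

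Counted by bases or fragments, clusters and flanks were closer. Every peak of the list started and ended in the middle of a GATC, and each was made up of complete DpnII fragments, the stretches between neighbouring GATC sites. The 2 cluster peaks consisted of 4 and 2 fragments, while 8417 peaks of the list (55.7%) were a single fragment. Peaks covered 0.972% of the bases in clusters, 1.44% in flanks and 1.18% in the genome. Of 1111 DpnII fragments in the clusters, 6 were in a peak (0.540%). The same held for 12 of 1936 fragments in the flanks (0.620%) and for 0.446% of the fragments in the genome. Fragment lengths differed little, with a median of 310 bp in clusters, 289 bp in flanks and 260 bp in the genome, and 9.63%, 9.14% and 8.66% of fragments were at least 1000 bp long.

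The first cluster peak was at chr11:96258450-96261382, a 2.93 kb stretch between Hoxb13 and Hoxb9 with its midpoint in an intron of the long non-coding RNA gene Gm53. Its signal value, the caller's measure of Dam-ZFP266 against Dam only whose scale is not stated, was 0.644. Its score, which rises with the −log10 q up to 1000, was 437. Its −log10 q, where q is the p-value after correction for the number of tests, was 1.05 (q = 0.0885). Only 13.2% of the peaks in the list had a lower signal value and 9.74% a lower −log10 q. The start of Hoxb9, a posterior gene with a role in the ribs, was 9.95 kb away, and Mir196a-1, whose microRNA represses several Hox transcripts, was 3.78 kb away.

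The other cluster peak was at chr11:96294127-96295908, 1.78 kb long, between the curated transcripts of Hoxb7 and Hoxb6. Its signal value was 0.478, its score 441 and its −log10 q 1.06 (q = 0.0867). It had a lower signal value than nearly all of the list, with 2.43% of the peaks below it. Its midpoint was in an intron of Hoxb5os, a non-coding RNA transcribed against the Hoxb genes, and the whole peak lay inside the gene record of Hoxb6. The annotated start of the curated Hoxb6 transcript was 3.17 kb from the peak, so the overlap with Hoxb6 rests on a longer gene record. Both cluster peaks were thus near the end of the list, which stops at q = 0.1. Among the 2 cluster peaks, 0 had a q under 0.05 and 0 a signal value above 1, beside 52.5% and 33.3% of all peaks. The methods name these cut-offs, on the FDR and on a log2 fold change, as examples of calling criteria. The list reaches beyond that q, and whether the signal value is that fold change is not stated.

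The borders of both cluster peaks are shown because they fix the resolution at which these positions are known. Each line is the forward strand of chromosome 11 in the GRCm38 reference, the source of every sequence printed, around a border, with the GATC in capitals. The lines cover chr11:96258436-96258463, chr11:96261369-96261396, chr11:96294113-96294140 and chr11:96295895-96295922.

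Gm53 peak start: tcaagccacttaGATCctcccccccacc

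Gm53 peak end: aatatttgctcaGATCttgggctaacta

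Hoxb6 peak start: gggggggggaaaGATCtcttgggtatga

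Hoxb6 peak end: gaggccccaaggGATCtagcaggaaggt

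The flank peaks had higher values than the cluster peaks. Their signal values ran from 0.772 to 1.30 with a median of 0.944, beside 0.898 over the whole list. Their −log10 q ran from 1.12 to 1.81 with a median of 1.22, beside 1.33 over the list. Of the 8 flank peaks, 4 had a q under 0.05 and 2 a signal value above 1, near the shares of 52.5% and 33.3% in the list. The lowest flank value was above both cluster values for signal and for −log10 q. The same held for the score, which rises with the −log10 q and is not a separate measure. This is a description of 2 and 8 peaks and was not tested.

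Of the 8 flank peaks, 7 were on the side of the lowest-numbered listed gene of a cluster and 1 beyond the highest-numbered gene. This is 17.5 peaks per Mb (95% interval 7.04 to 36.1) against 2.50 (95% interval 0.0633 to 13.9). These intervals overlap, and the sides were set apart after the values had been seen. The sides held 21.8 and 27.8 B1 SINEs per 100 kb.

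Beside Hoxa there were 2 peaks, both beyond Hoxa2, which patterns the hindbrain and the neural crest of the second branchial arch. The peak at chr6:52066906-52067521 was intergenic, 94.9 kb from Hoxa2, and had the highest signal value (1.30) and −log10 q (1.81) of the 10 peaks in clusters and flanks. The peak at chr6:52101886-52104215 covered the annotated start of Halr1, a long non-coding RNA gene, and lay 58.2 kb from Hoxa2. Its signal value was 0.772 and its −log10 q 1.60.

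Beside Hoxb there were 4 peaks. The peak at chr11:96142498-96143175 was in an intron of Ttll6, a tubulin polyglutamylase gene, 51.1 kb from Hoxb13, with a signal value of 0.960 and a −log10 q of 1.36. The other 3 were intergenic, on the side of Hoxb1, a gene of hindbrain segmentation. The peak at chr11:96399741-96402502 was 31.5 kb from Hoxb1, with a signal value of 1.01 and a −log10 q of 1.30 (q = 0.04996). Those at chr11:96411116-96411547 and chr11:96439287-96441341 had signal values of 0.784 and 0.927 and −log10 q values of 1.13 and 1.14.

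Hoxc and Hoxd had 1 flank peak each. The Hoxc peak at chr15:103078784-103079908 was intergenic, 41.9 kb beyond Hoxc4, with a signal value of 0.885 and a −log10 q of 1.13. The Hoxd peak at chr2:74826327-74827821 was in an intron of Mtx2, a gene for a protein of the mitochondrial outer membrane, 61.2 kb beyond Hoxd1, with a signal value of 0.999 and a −log10 q of 1.12.

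Among the 38 Hox genes, 1 (Hoxb6) had a peak in its gene record. The background is 17.3% of all protein-coding genes, and 8.81% of the 16380 protein-coding genes no longer than the longest Hox gene (Hoxa3, 44009 bp). The median Hox gene was 3722 bp long, so most were far below that limit. No Hox gene had a peak in its promoter, taken from 1000 bp before to 100 bp after a curated transcript start, where 3.57% of protein-coding genes with such a transcript had one. With 10 kb added on each side, 5 Hox genes had a peak, beside 27.0% of protein-coding genes. These were Hoxb5, Hoxb6, Hoxb7, Hoxb8 and Hoxb9, neighbours that share the 2 cluster peaks and are not independent of each other.

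The distance from a Hox gene to its nearest peak had a median of 89.9 kb and reached 155 kb. In Hoxb, Hoxb7 was 3.96 kb, Hoxb5 7.60 kb, Hoxb8 8.80 kb, Hoxb9 9.95 kb, Hoxb3 11.2 kb and Hoxb4 22.4 kb from a peak. The outer genes Hoxb1, Hoxb2 and Hoxb13 were nearest to flank peaks, at 31.5, 45.7 and 51.1 kb. The median over the 10 Hoxb genes was 10.6 kb.

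In the other clusters the distance grew with the gene number, because the nearest peak lay beyond the lowest-numbered listed gene. In Hoxa it went from 58.2 kb at Hoxa2 over 97.5 kb at Hoxa5 and 119 kb at Hoxa9 to 155 kb at Hoxa13, a gene of the distal limb and urogenital tract. In Hoxc it went from 41.9 kb at Hoxc4 over 84.5 kb at Hoxc8 and 107 kb at Hoxc10 to 150 kb at Hoxc13, which acts in hair and nails. In Hoxd it went from 61.2 kb at Hoxd1 over 97.2 kb at Hoxd4 and 131 kb at Hoxd10 to 155 kb at Hoxd13, which patterns the digits. By number, the median distance was 58.2 kb over the 7 anterior genes (up to Hox3). It was 66.9 kb over the 15 central genes (Hox4 to Hox8) and 129 kb over the 16 posterior genes (from Hox9). Within each of Hoxa, Hoxc and Hoxd, all listed genes had the same nearest peak, so these distances are not independent of each other.

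**Figure D2:**
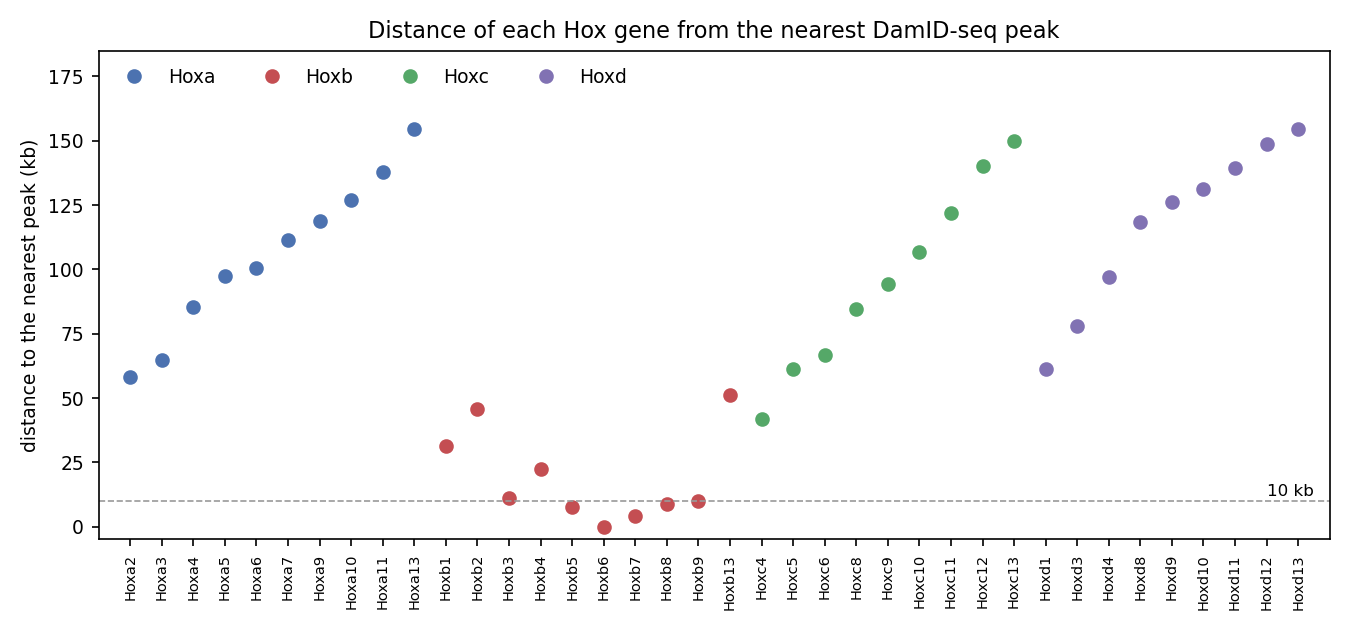
Distance in kb from each of the 38 Hox genes to the nearest DamID-seq peak of the list, 1 point per gene, coloured by cluster and ordered by gene number. Hoxb6 is at 0 and 5 Hoxb genes are at or under the dashed line at 10 kb, while Hoxa13 and Hoxd13 are at 155 kb.

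The stretch without a peak that held all listed Hoxd genes was 938 kb long, at chr2:73888713-74826326. For Hoxa it was 480 kb (chr6:52104216-52584626) and for Hoxc 354 kb (chr15:102724716-103078783). Of all 15140 stretches without a peak, whose median was 37.1 kb, 533 were at least as long as that around Hoxd, 1351 as that around Hoxa and 1911 as that around Hoxc. These longest stretches held 38.5%, 59.1% and 68.0% of all bases without a peak.

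Of 23 long non-coding RNA genes overlapping the clusters, 2 had a peak, Gm53 and Hoxb5os. The background was 9.76% of all long non-coding RNA genes no longer than the longest Hox gene. Hotair, whose RNA is known for its ties to Polycomb, was 131 kb from the nearest peak and Haglr of the Hoxd cluster 63.4 kb. Of the 6 microRNA genes, 0 had a peak, beside 1.55% of all microRNA genes, so both counts were near the background. Mir196a-1 was 3.78 kb and Mir10a 21.3 kb from a peak, while Mir615, Mir10b, Mir196a-2 and Mir196b were 63.8, 100, 105 and 126 kb away.

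The sequence of the clusters differed from that of the flanks in the ways known for Hox loci. GC content was 49.3% in clusters, 44.1% in flanks and 41.7% in the genome. The ratio of observed to expected CpG was 0.401, 0.226 and 0.19. Masked repeats took up 18.2% of cluster bases, 29.6% of flank bases and 36.4% of the genome.

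B1 SINEs, taken as alignments to a consensus over at least 80 positions with gaps counted and at 70% identity or more, numbered 41 in the clusters, or 8.45 per 100 kb, and 198 in the flanks, or 24.8 per 100 kb, beside 10.5 per 100 kb in the genome. B2 SINEs stood at 4.12, 16.1 and 6.37 per 100 kb. The flanks were therefore richer in both families than the genome. The clusters were uneven. Hoxc held 0 B1 SINEs, Hoxa 2 (in Hoxa3 and outside genes), Hoxd 2 (in Hoxd3 and in Haglr) and Hoxb 37.

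Within Hoxb, 33 of the 37 B1 SINEs were between Hoxb13 and Hoxb9, a 74.7 kb interval with 44.2 B1 SINEs per 100 kb and 33.9% masked repeats. From Hoxb9 to Hoxb1 there were 4, or 4.13 per 100 kb, with 18.0% masked repeats. Each of these intervals held 1 of the 2 cluster peaks. A description of the Hox clusters as poor in SINEs therefore held for Hoxa, Hoxc, Hoxd and the compact part of Hoxb, and not for the interval between Hoxb13 and Hoxb9.

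**Figure D3:**
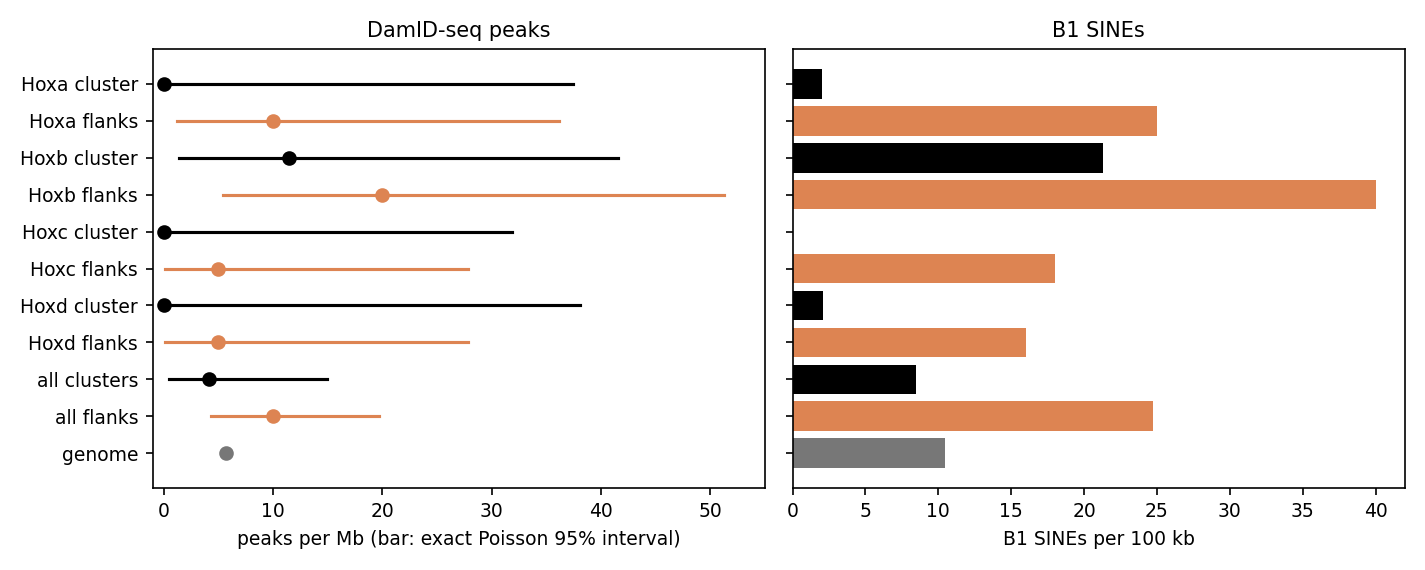
Left, DamID-seq peaks per Mb in each Hox cluster (black), in its flanks of 100 kb on each side (orange) and in the genome (grey), with exact Poisson 95% intervals as bars; right, B1 SINEs per 100 kb in the same sequence. The intervals of all clusters (4.12 peaks per Mb) and all flanks (10) overlap, while B1 SINEs stand at 8.45 and 24.8 per 100 kb.

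Of the 2 cluster peaks, 0 held a B1 SINE and 0 a B2 SINE. The nearest B1 SINE was 1039 bp from the Gm53 peak, in the same gene, and 36716 bp from the Hoxb6 peak. Of the 8 flank peaks, 3 held a B1 SINE and 1 a B2 SINE, beside 32.7% and 16.9% of the 15119 peaks. Longer regions hold more SINEs: of genome windows as long as the Gm53 peak, 23.4% held a B1 SINE, and of windows as long as the Hoxb6 peak, 16.3%. All 3 flank peaks with a B1 SINE were beside Hoxb. For the other 5 flank peaks, the nearest B1 SINE was 283 and 519 bp from the Hoxa flank peaks, 309 bp from the peak at chr11:96411116-96411547, 392 bp from the Hoxc flank peak and 2818 bp from the Mtx2 peak.

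Both motifs looked at were less dense in clusters than in flanks or the genome. The AP-1 core motif, TGACTCA or its complement TGAGTCA, occurred 8.45 times per 100 kb in clusters, 15.1 times in flanks and 16.4 times in the genome. It was in 1 of the 2 cluster peaks, in 2 of the 8 flank peaks and in 44.2% of all peaks. Of genome windows as long as the Gm53 peak, 36.9% held it. The HOX-PBX motif TGATTNAT, a joint site of HOX and PBX homeodomains, read on both strands, occurred 14 times per 100 kb in clusters, 17.8 times in flanks and 20.6 times in the genome. It was in 0 of the 2 cluster peaks, in 4 of the 8 flank peaks and in 30.6% of all peaks. Of windows as long as the Gm53 peak, 42.0% held it, and of windows as long as the Hoxb6 peak, 28.5%. For windows as long as the single flank peaks, the share with the HOX-PBX motif ran from 7.91% to 40.3%. The share with the AP-1 core motif ran from 6.65% to 35.2%. The counts in peaks were not tested against these shares.

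The matches in the peaks named above are shown with 12 bases on each side and the motif in capitals, read on the strand that carries the motif. A match is a run of letters and not evidence of binding. The AP-1 matches are at chr11:96260478-96260508 in the Gm53 peak and chr6:52102369-52102399 in the Halr1 peak, and at chr11:96400138-96400168 and chr11:96402421-96402451 in the peak 31.5 kb from Hoxb1, all on the forward strand. The HOX-PBX matches are at chr6:52104020-52104051 in the Halr1 peak and chr6:52067013-52067044 in the intergenic Hoxa flank peak, both on the reverse strand, at chr11:96440779-96440810 beside Hoxb on the forward strand and at chr2:74827052-74827083 in the Mtx2 peak on the reverse strand.

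AP-1, Gm53: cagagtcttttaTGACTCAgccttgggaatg

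AP-1, Halr1: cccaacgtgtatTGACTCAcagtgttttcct

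AP-1, Hoxb1 flank, left: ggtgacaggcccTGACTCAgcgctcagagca

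AP-1, Hoxb1 flank, right: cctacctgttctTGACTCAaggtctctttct

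HOX-PBX, Halr1: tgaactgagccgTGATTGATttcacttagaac

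HOX-PBX, Hoxa flank: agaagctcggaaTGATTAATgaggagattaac

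HOX-PBX, Hoxb flank: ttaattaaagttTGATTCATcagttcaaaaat

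HOX-PBX, Mtx2: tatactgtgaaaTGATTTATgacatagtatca

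TALE homeodomain cofactors bind DNA together with HOX proteins, and several of their genes are far longer than a Hox gene. Of the 2429 protein-coding genes of at least 100 kb, 56.5% had a peak. Meis1 (139 kb) and Pknox2 (256.4 kb) held 3 peaks each, with signal values up to 0.718 and 0.918. Pbx3 (201 kb) held 1 with a signal value of 0.446, while Meis2 (206 kb) had none. Among shorter cofactor genes, Pbx4 held 2 peaks, of which the one with the higher signal value, 1.51, contained a B1 SINE and had a −log10 q of 2.90 (chr8:69850111-69852074). Pbx2, Meis3 and Pknox1 had none, with the nearest peak 43.5, 4.66 and 22.9 kb away.

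The ParaHox genes, sisters of the Hox genes that act in gut, pancreas and brain, had a peak in 1 of 6, beside 8.81% of protein-coding genes no longer than the longest Hox gene and 17.3% of all; with 6 genes no difference can be read from this. This was Cdx2, a regulator of intestine and trophectoderm that also acts upstream of Hox genes, with a peak at chr5:147301052-147302706 whose midpoint was in an exon (signal value 0.813, −log10 q 1.15). Gsx1, Gsx2, Pdx1, Cdx1 and Cdx4 had none.

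Polycomb and Trithorax proteins keep Hox genes silent or active, and some of their genes had a peak. Kmt2a, the methyltransferase that keeps Hox genes active, had a peak in an intron with a signal value of 1.22 and a −log10 q of 3.32 (chr9:44860152-44862000), above all 10 peaks of the clusters and flanks in −log10 q. Cbx7 had 2 peaks with signal values up to 0.905, and Rnf2, a ubiquitin ligase of Polycomb complexes, had 1 with 0.564 and a B1 SINE. The midpoints of the Rnf2 peak and of the Cbx7 peak with the higher signal value were outside curated transcripts. Suz12, Eed and Ring1 had none in the gene, with the nearest peak 0.512, 1.42 and 1.25 kb away. Ezh2 had none either, and its nearest peak was 36.1 kb away.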

How the data were processed

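MEFs were profiled by DamID-seq in 5 Dam-ZFP266 and 5 Dam only samples. The submitters' processing notes name FastQC, cutadapt, BWA and GRCm38.p6. The authors dropped mitochondrial and blacklisted reads, counted reads on DpnII fragments with Rsubread and ran callPeak of Daim, for which no versions are given. The deposited list holds for each peak a score and a signal value, 2 caller scores without a stated scale. It also holds the −log10 q that the authors' caller gave. Values per sample were not analysed here, and a peak in the list was taken as it stands.

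Here, gene positions came from RefSeq (GRCm38.p6), with GENCODE vM21 basic as an alternative. A peak counted in a region with at least 1 shared base, and in the cluster if it also met a flank. B1 and B2 SINEs were found with blastn 2.17.0 (word size 11, e-value limit 10) and consensus sequences extended from 14-base words. A stricter limit of 100 aligned positions and 85% was an alternative. Counts carry exact Poisson intervals, and the ratio an exact conditional interval. Python 3.11.15, numpy 2.4.6, pandas 2.3.3, scipy 1.17.1 and matplotlib 3.10.9 were used, and the counting steps were tested on simulated regions. The genes named come from the listed Hox genes, the genes at peaks in clusters and flanks, and the non-coding genes overlapping clusters. Others come from the cofactor, ParaHox and Polycomb or Trithorax lists. Members and lists were chosen with earlier results of these data known. The split of the flanks by side, the intervals of Hoxb, the stretches without a peak, the non-coding genes without a peak and the groups by gene number were chosen after seeing the data.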

Additional observations from a re-analysis of the deposited data

How the results depend on the processing

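The peaks inside clusters were weak, and stricter lists removed them. With only peaks of q under 0.05, or only peaks with a signal value above 1, 0 peaks lay in the clusters, the ratio of clusters to flanks was 0, the share of bases under peaks was 0% and 0 Hox genes had a peak; this follows from the values of the 2 peaks. With Hoxb ended at Hoxb9, 1 cluster peak was left, since the Gm53 peak is outside that extent. With 10 kb on each side of a gene, 5 Hox genes had a peak. With a gene taken from the first to the last base of its curated transcripts, an alternative chosen after seeing the data, 0 Hox genes had one. The other 4 alternatives for the number of cluster peaks (midpoint, 50% of the peak, joining within 1 kb, GENCODE) kept it at 2. The other 7 for the ratio, among them flanks of 50 and 200 kb, fragments and unmasked bases as denominators, gave 0.245 to 0.660, within the interval of the reported ratio. The number of cluster peaks with a B1 SINE was 0 under both definitions. No paired analysis was possible because the peak list used here pools the samples, and no sample could be left out of it; values per sample were not analysed here. With 2 and 8 peaks, only large differences between clusters and flanks could be seen, and read depth is unknown.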
